A study of Mus musculus with 19 samples.

Results

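The 39 genes described here encode actins, the contractile and focal adhesion proteins that work on actin filaments, and the transcription factor SRF with its cofactor Mrtfa. They were given as a list of gene symbols, drawn up with earlier results of these data known. All 39 had at least 1 probe set among the 18193 genes of the array that a probe set names alone. Signals were measured in NIH3T3 cells, an established mouse fibroblast line, in a study of how ERK MAP kinase controls gene expression between quiescence and S phase. Every culture, controls included, was grown in 10% calf serum and then held for 48 h in 0.1% serum. In 4 groups the cells were given U0126, an inhibitor of the ERK-activating kinase MEK, at 20 µM 0.5 h before 50 ng/ml bFGF, and were measured after 1, 4, 7 or 12 h of bFGF. In a further pair of groups U0126 was added 1 h after bFGF and measured at 7 h, or added 7 h after bFGF and measured at 12 h. Another 4 groups had bFGF alone for 1, 4, 7 or 12 h, and the remaining group was the quiescent cells. No group had U0126 without bFGF. Of the 19 arrays, 3 were quiescent cells, named here 1a, 1b and 2 by experiment, and 2 were in each group at 4, 7 and 12 h except the late additions. Those additions and both groups at 1 h had 1 array each, of experiment 1. In bulk RNA, fewer cells carrying a transcript and less transcript per cell cannot be told apart. The labels do not say whether the experiments used separate cultures, so p-values measure the spread between these arrays, which may be technical.

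SRF binds a DNA element called the CArG box and drives cytoskeletal genes together with the myocardin-related factors, of which Mrtfa (also called Mkl1) is one. Mrtfa is held in the cytoplasm by monomeric actin and enters the nucleus when actin polymerises, so the amount of free actin feeds back on genes that encode actin and its partners. A different class of SRF targets, immediate-early genes such as Egr1 and Fos, is reached through ternary complex factors that ERK phosphorylates. In fibroblasts the cytoskeletal class builds stress fibres and focal adhesions, while growth factors such as bFGF are known to activate ERK through MEK.

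Promoters are shown for the genes whose values are given below and whose promoter holds a CArG box, since that element is what SRF binds. The windows come from RefSeq promoters of build GRCm38.p6, which reach from 250 bases before to 50 after a transcription start, and are printed 5′ to 3′ on the gene's strand with 20 bases on either side of the box, which is in capitals.
Srf: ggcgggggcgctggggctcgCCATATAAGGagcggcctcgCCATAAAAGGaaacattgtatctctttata
Actg1: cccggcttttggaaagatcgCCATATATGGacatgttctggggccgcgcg
Vcl: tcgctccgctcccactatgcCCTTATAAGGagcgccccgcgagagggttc
Cnn2: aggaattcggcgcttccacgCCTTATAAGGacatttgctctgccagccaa
Myl9: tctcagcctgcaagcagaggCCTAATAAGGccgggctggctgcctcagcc
Fhl1: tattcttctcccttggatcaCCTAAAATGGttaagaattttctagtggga
Fhl2, first start: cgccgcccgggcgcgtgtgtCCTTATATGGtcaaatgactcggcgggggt
Fhl2, second start: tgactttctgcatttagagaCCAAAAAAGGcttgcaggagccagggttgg
The Srf window lies at chr17:46556195-46556264 on the minus strand and holds 2 boxes. On the minus strand too are Actg1 at chr11:120348556-120348605 and the Fhl2 windows at chr1:43163963-43164012 and chr1:43196828-43196877. On the plus strand are Vcl at chr14:20929151-20929200, Cnn2 at chr10:79988524-79988573, Myl9 at chr2:156775283-156775332 and Fhl1 at chrX:56779561-56779610. All boxes shown lie before the start, from position -227 in Vcl to -31 at the first Fhl2 start. The Fhl2 starts are named in order of genome coordinate, so on the minus strand the second lies upstream of the first. A search of both strands for CC and GG around a run of A and T, the CArG box, found it in 9 of the 35 members with a promoter entry (25.7%), against 535 of all 32851 promoters (1.63%). Actc1 and Vil1 were the members with a box not printed here. Members were picked in part as known SRF targets, so the excess is a description. CATTCC, the core of the TEAD site, stood in 12 of the 35 members (34.3%), against 14.7% of all promoters. TGANTCA, the AP-1 site, stood in 4 members (11.4%), against 7.81% of all promoters. The members' shares count genes, some with several promoters, and the others count promoters, so they are not in like units. Counted by promoter, 10 of the members' 42 held the CArG box, 13 CATTCC and 4 TGANTCA. No matches of different motifs overlapped in the members.

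Of the 39 members, 37 passed the filter on low values and were tested, among 14996 genes in all. The filter kept a probe set above the 40th percentile of its array on at least 2 arrays. Cnn1 (highest signal 109) and Vil1 (highest signal 33.6) did not pass. Each gene was represented by its brightest probe set, and 22 members had more than 1 that passed. Signal is not comparable between probe sets. The members' median signals over the 19 arrays ran from 6.6 for Lmod1 to 27518 for Actb, and Actg2 (56.6), Actc1 (52.5) and Lmod1 stood near or below the 40th percentile of all values, 45.2. All 8 fibroblast markers, Col1a1 and Vim among them, were above the 40th percentile on all 19 arrays, and of the 6 smooth muscle markers Smtn was on all 19 (signals of 231 to 575), Des on 10, Lmod1 on 2, Cnn1 on 1, and Myh11 and Myocd on 0. The signals summed over these 6 ran from 512 to 536 at 4 h of FGF with U0126 and from 573 to 677 with FGF alone. At 7 h the sums were 271 to 446 with U0126 and 286 to 527 with FGF alone, and at 12 h 456 to 622 with U0126 and 384 to 398 with FGF alone, against 464 to 673 in quiescent arrays. Smtn, with a median signal of 402.5, was by far the brightest of the 6, and Des (49.2) was the next. Cnn1 and Lmod1 are also members. The part of these markers in the members' values was not tested. Array medians ran from 60.2 to 88.3, and Actb 3′ to 5′ ratios from 1.16 to 1.47, with the highest of both on the FGF 1 h array.

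Fhl2, Zyx, Csrp1, Fhl1, Flnc and Tgfb1i1 were lower at both 7 and 12 h of FGF than in quiescent cells, and Actn1, Actn4 and Tagln2 were higher at 12 h. Differences are of log2(signal + 13.6) with standard errors, and a gene was called at an adjusted p under 0.05 from limma with Benjamini-Hochberg adjustment over all genes tested. At 1 h of FGF 0 of 37 members were called, where 0.48% of all genes were (1.57% with the block, and again 0 members); 3 members had an unadjusted p under 0.05. At 4 h 1 member was called, lower, beside 8.91% of all genes (4.99% lower and 3.92% higher). At 7 h 7 members were lower and 1 higher, 21.6% of those tested, beside 12.7% of all genes (7.2% lower and 5.45% higher). At 12 h 8 were lower and 3 higher, 29.7%, beside 20.3% (11.8% lower and 8.54% higher). The median difference at 12 h was -0.14 over the members and -0.015 over all genes. With the experiment number as a block the members called at 4, 7 and 12 h were 6, 15 and 18, beside 17.7%, 21.7% and 30% of all genes, where the members' share at 4 h, 16.2%, was near the background. The 7 h count was 1 without FGF 7 h replicate 1, 3 without quiescent replicate 2 and 11 without quiescent replicate 1a. At 12 h it was 5 without FGF 12 h replicate 1 and equally without quiescent replicate 2, while leaving out FGF 12 h replicate 2 gave 6. By role, a grouping made after the values were seen, LIM-domain proteins had 5 of 7 members lower at 7 h and 6 of 7 at 12 h (median at 12 h -0.99), beside the 7.2% and 11.8% of all genes lower at those times. Among these the brightest probe sets of Pdlim5, Fhl1 and, at 7 h, Zyx differed in direction from further probe sets of the same gene, given below. Of 11 tested LIM-domain genes in the further lists, picked out after their values were seen, 2 were lower (Pdlim2 at -0.83 and Lima1 at -0.68) and 1 higher (Pdlim1 at 0.64) at 12 h, and at 4 and 7 h Limk1 was higher (0.72 and 0.77) and Pdlim2 lower (-0.86 and -0.90). Mical2, which also has a LIM domain, was not counted among the 11. It was 0.395, 0.46 and 0.465 from quiescent cells at 4, 7 and 12 h, not called. At 12 h crosslinkers had 2 of 4 higher and 1 lower, and the calponin family with caldesmon 1 of 5 each way. By brightest probe set, none of the 5 actins, the 6 myosin and tropomyosin genes or the 5 genes of actin turnover was called at 12 h. With the block 1 actin and 2 of the myosin and tropomyosin genes were. Further probe sets of Wdr1, a gene of actin turnover, and of Myh9, Tpm1 and Tpm2 are given below. Of the 8 tested members with a box in their promoter, 3 were lower at 7 h (Fhl1, Fhl2 and Myl9) and 3 at 12 h (Fhl1, Fhl2 and Cnn2). Of the 29 others 4 were lower at 7 h and 5 at 12 h. Those 29 include Actb, Actg2, Tagln and Tgfb1i1, which had no promoter entry and could not be searched. Tgfb1i1 was among the lower ones at both times. Srf, Actg1, Actc1 and Vcl, which have a box, were not called at any time of FGF.

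**Figure D1:**
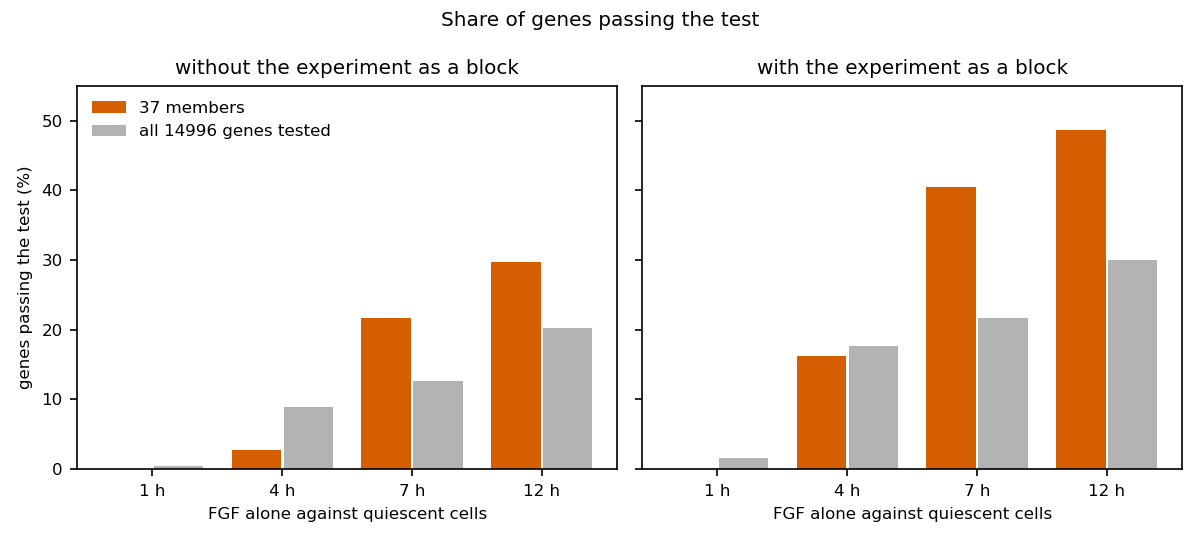
The bars give the percent of genes called for FGF alone at 1, 4, 7 and 12 h against quiescent cells, for the 37 members and for all 14996 genes tested, without (left) and with (right) the experiment number as a block. At 7 and 12 h the members' bars stand above those of all genes (21.6% and 29.7% against 12.7% and 20.3% without the block), and at 1 and 4 h they do not.

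**Figure D2:**
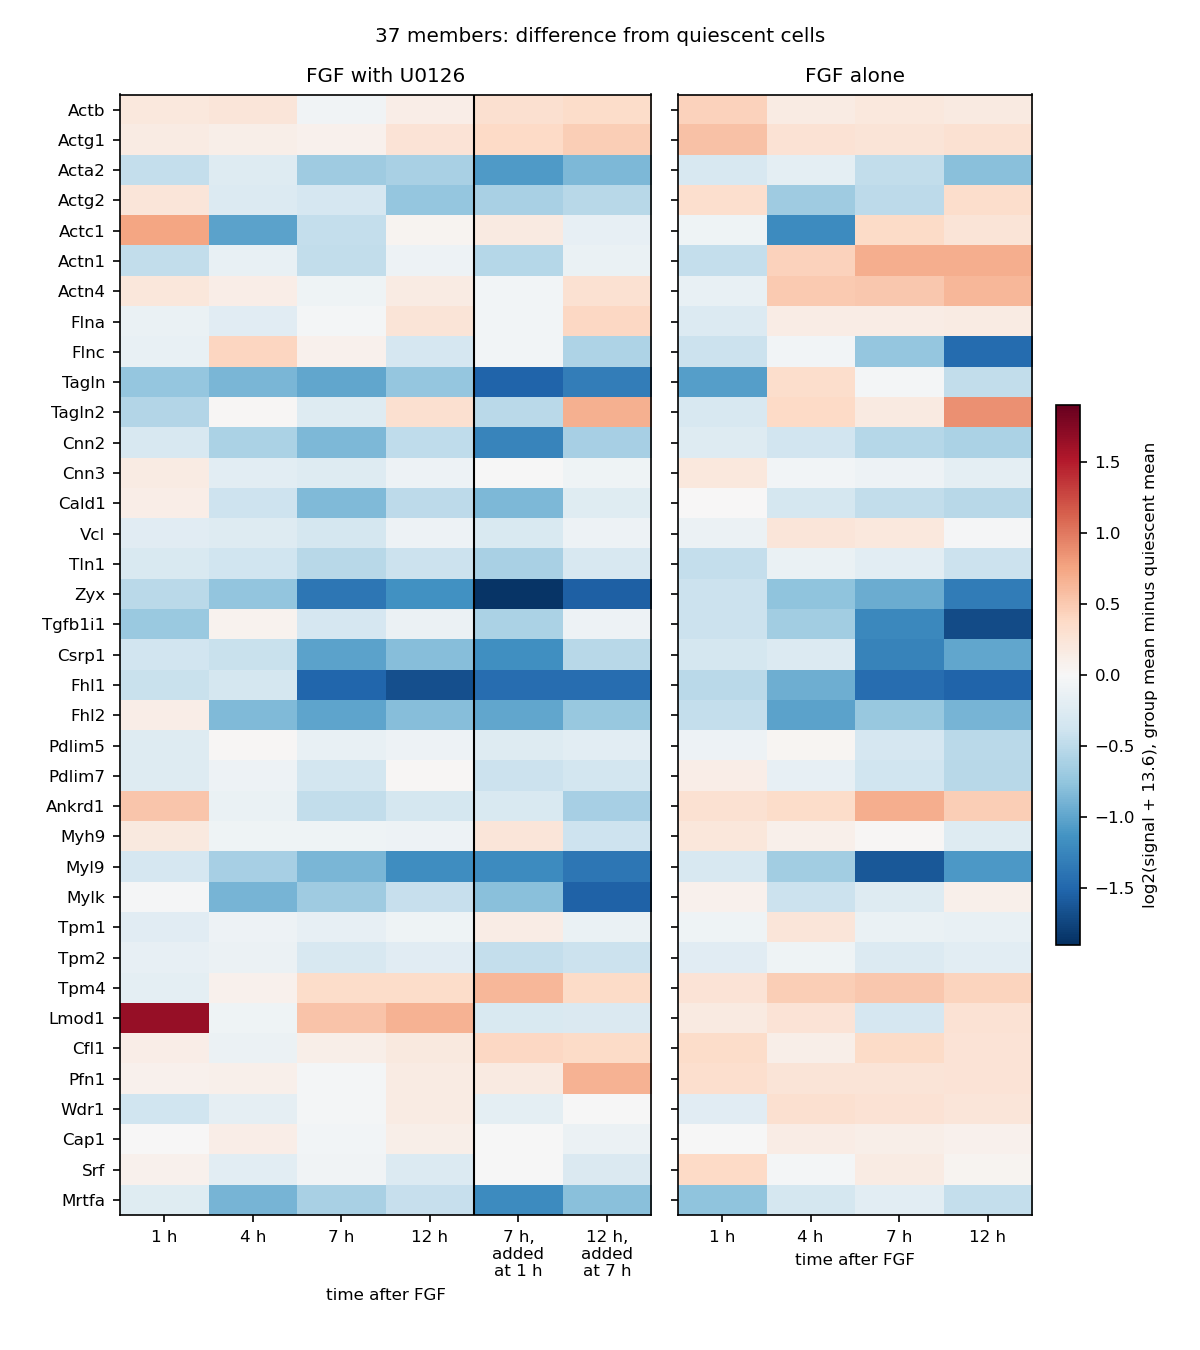
Each cell is the mean log2(signal + 13.6) of a group minus that of quiescent cells for 1 of 37 members, with FGF and U0126 on the left (the last pair of columns are the late additions) and FGF alone on the right, ordered by time and role. Blue is lower than quiescent cells and red higher. Zyx, Csrp1, Fhl1 and Fhl2 are blue from 7 h in both panels, while Flnc and Tgfb1i1 at 12 h are dark blue only with FGF alone and Actn1 is red only with FGF alone.

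Srf itself, Mrtfa, Actb, Actg1 and Acta2 were not called in any of the 19 comparisons made, without the experiment as a block. Nor were they called in the F test between times of FGF alone. Srf (probe set 1418255_s_at), whose own promoter carries the paired boxes shown above, had signals with U0126 of 832 at 1 h, 629 and 734 at 4 h, 730.3 and 757 at 7 h, and 596 and 704 at 12 h. Signals of Srf without U0126 were 571, 703 and 965 in the quiescent arrays, 1023 at 1 h, 663 and 879 at 4 h, 817 and 929 at 7 h, and 783 and 848 at 12 h. The single FGF 1 h array was above all 3 quiescent arrays, a difference of 0.38 ± 0.25 (adjusted p = 0.651), not called. Srf had 781 at 7 h and 642 at 12 h in the late additions of U0126. On average over 4, 7 and 12 h, the U0126 effect on Srf was -0.24 ± 0.12 (adjusted p = 0.18), or 0.0347 as adjusted p under the block. Mrtfa (probe set 1434900_at) had signals with U0126 of 692 at 1 h, 379 and 499 at 4 h, 420.5 and 658 at 7 h, and 521 and 673 at 12 h. Mrtfa without U0126 had 666, 655 and 996 in the quiescent arrays, 472 at 1 h, 578 and 706 at 4 h, 503 and 982 at 7 h, and 605 and 569 at 12 h. Both 4 h arrays with U0126 were below both of FGF alone. Mrtfa had 347 at 7 h and 461 at 12 h in the late additions of U0126. Its average U0126 effect was -0.31 ± 0.17 (adjusted p = 0.243), with an adjusted p of 0.0346 under the block, and FGF with U0126 at 4 h was -0.88 from quiescent cells (adjusted p = 0.101, or 0.00321 with the block). At 7 h that difference was -0.61 (adjusted p = 0.255, or 0.0286 with the block).

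Actb and Actg1 are the cytoplasmic actins of non-muscle cells. Actb had 28349 at 1 h of FGF with U0126 and 33390.4 with FGF alone, against 26243, 26241 and 23079 in quiescent cells. Actg1 had 25670.0 at 1 h with U0126 and 33841 with FGF alone, against 22512, 22609 and 23512 in quiescent cells. In both genes the 1 h arrays with and without U0126 were above every quiescent array, and neither gene was called in either comparison. The Actb difference was 0.44 ± 0.20 (adjusted p = 0.538) with FGF alone. The Actg1 difference at 1 h was 0.55 ± 0.20 (adjusted p = 0.39). At the later times, with U0126, Actb had 27518 and 30039.5 at 4 h, 25068 and 21889 at 7 h, and 25139.5 and 28944 at 12 h, and without U0126 24505 and 30490.3 at 4 h, 26361 and 30244 at 7 h, and 23799.7 and 32307 at 12 h. Actg1 had 25007 and 24585 at 4 h, 25698 and 23341 at 7 h, and 25707 and 29554 at 12 h with U0126, and 24573 and 31288 at 4 h, 25144 and 29749 at 7 h, and 24487 and 32423 at 12 h without it. Actb had 30242 at 7 h and 31296 at 12 h in the late additions of U0126. Actg1 had 29942 at 7 h and 31829 at 12 h in the late additions of U0126. The arrays with and without U0126 overlapped at each of these times, except for Actb at 7 h, where both arrays with U0126 were lower and the difference was -0.27 ± 0.17 (adjusted p = 0.467). Acta2, smooth muscle alpha-actin, which activated fibroblasts also use, had 4192 at 1 h, 4045 and 5744 at 4 h, 2604 and 4909 at 7 h, and 3365 and 4131 at 12 h with U0126. Without U0126 it had 3762, 4718 and 7821 in the quiescent arrays, 4632 at 1 h, 3594 and 7018 at 4 h, 2879.5 and 5963 at 7 h, and 2626 and 4129.5 at 12 h. Acta2 had 2726 at 7 h and 3183 at 12 h in the late additions of U0126. In each 2-array group of FGF alone or with U0126, the experiment 2 array of Acta2 was the higher, and so was the quiescent array of experiment 2. The Acta2 difference at 12 h was -0.80 ± 0.40 (adjusted p = 0.199), with overlapping groups. With the experiment as a block Acta2 was called lower at 7 h (0.0287 as adjusted p) and 12 h (0.000393) of FGF alone. FGF with U0126 gave -0.68 at 7 h (adjusted p = 0.371, or 0.003 with the block) and -0.62 at 12 h (0.477, or 0.00784).

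Of the LIM-domain genes, Fhl2, Zyx, Csrp1 and Fhl1 were lower than in quiescent cells with FGF, and were also lower with FGF and U0126. Fhl2 (probe set 1419184_a_at), a four-and-a-half-LIM protein that binds integrins and SRF, was also called at 4 h of FGF alone, as Zyx and Fhl1 were with the block only. Signals of Fhl2 with U0126 were 3754 at 1 h, 2065 and 1772 at 4 h, 1523 and 1901 at 7 h, and 1932 and 1987 at 12 h of FGF. In arrays not given U0126, Fhl2 had 2845, 3416 and 3768 in the quiescent arrays, 2503 at 1 h, 1777 and 1595 at 4 h, 1995 and 2144 at 7 h, and 1695 and 2006 at 12 h. Every array at 4, 7 and 12 h, with or without U0126, was below every quiescent array. Fhl2 fell, with differences of -1.02 ± 0.15 at 4 h of FGF (adjusted p = 0.000826), -0.72 ± 0.15 at 7 h (adjusted p = 0.00605) and -0.89 ± 0.15 at 12 h (adjusted p = 0.000798). With U0126 its differences from quiescent cells were -0.84 ± 0.15 (adjusted p = 0.00374) at 4 h, -1.0 ± 0.15 (adjusted p = 0.000761) at 7 h and -0.80 ± 0.15 (adjusted p = 0.00561) at 12 h. The average U0126 effect on Fhl2 was -0.0034, with a 95% interval of -0.19 to 0.19. The 7 h call with FGF alone was lost without FGF 7 h replicate 1 (adjusted p = 0.0507) or quiescent replicate 2 (0.0871), and those with U0126 at 4 and 12 h without quiescent replicate 2 (adjusted p = 0.0626 and 0.0988) and at 12 h also when FGF 12 h with U0126 replicate 1 was left out (0.0539).

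Zyx (probe set 1417240_at) encodes zyxin, a focal adhesion protein that moves to strained stress fibres. Zyx with U0126 had 4147 at 1 h, 3059 and 4054 at 4 h, 1693 and 3041 at 7 h, and 2224 and 3189.9 at 12 h. Signals of Zyx without U0126 were 4123, 5397 and 7409 in the quiescent arrays, 4443 at 1 h, 3282 and 3685 at 4 h, 2437 and 3845 at 7 h, and 2207 and 2504 at 12 h. No array at 4, 7 or 12 h reached the lowest quiescent array, with or without U0126. The difference with FGF alone was -0.95 ± 0.29 (adjusted p = 0.043) at 7 h and -1.33 ± 0.29 (adjusted p = 0.00407) at 12 h, and at 4 h it was -0.76, not called (adjusted p = 0.124, or 0.000898 with the block). With U0126 it was -0.75 at 4 h (adjusted p = 0.157, or 0.00126 with the block), -1.38 ± 0.29 (adjusted p = 0.00709) at 7 h and -1.15 ± 0.29 (adjusted p = 0.0306) at 12 h from quiescent cells. On average over 4, 7 and 12 h, the U0126 effect was -0.077, with an interval of -0.43 to 0.28. The 12 h call was lost without quiescent replicate 2 (adjusted p = 0.0694). The 7 h call was lost without FGF 7 h replicate 1 (adjusted p = 0.322), quiescent replicate 1b (0.093) or quiescent replicate 2 (0.377). The gene's other probe set that passed the filter, 1438552_x_at, differed by 0.49 at 7 h and -0.041 at 12 h.

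Csrp1 (probe set 1425811_a_at), a cysteine- and glycine-rich LIM protein of actin bundles, stayed near the quiescent range at 4 h and was lower afterwards. With U0126 it had signals of 2388 at 1 h, 2240.4 and 2323 at 4 h, 1256 and 1814 at 7 h, and 1786 and 1684 at 12 h. Csrp1 without U0126 had 2316, 3135 and 3478 in the quiescent arrays, 2437 at 1 h, 2396 and 2726 at 4 h, 1039.7 and 1538 at 7 h, and 1829 and 1285 at 12 h. The 4 arrays of FGF alone at 7 and 12 h were all below the 3 quiescent arrays. Csrp1 fell, with differences of -1.27 ± 0.22 at 7 h of FGF (adjusted p = 0.00159) and -0.99 ± 0.22 at 12 h (adjusted p = 0.00467). The 7 h call held in every alternative run, and the 12 h call was lost without FGF 12 h replicate 2 (adjusted p = 0.075) or quiescent replicate 2 (0.0677). With U0126 it was -1.01 ± 0.22 (adjusted p = 0.00889) at 7 h and -0.82 ± 0.22 (adjusted p = 0.0438) at 12 h from quiescent cells. The average U0126 effect was 0.089, with an interval of -0.18 to 0.36. A second probe set, 1425810_a_at, gave -1.19 at 7 h and -1.02 at 12 h of FGF.

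Fhl1 (probe set 1417872_at), a relative of Fhl2 best known from skeletal muscle, had low signals here. With U0126 they were 272 at 1 h, 319 and 269 at 4 h, 77.5 and 187 at 7 h, and 63.5 and 177 at 12 h. Without U0126 they were 301, 401 and 396 in the quiescent arrays, 257 at 1 h, 165 and 217 at 4 h, 102 and 158 at 7 h, and 95.3 and 153 at 12 h. All arrays at 7 and 12 h were below the 3 quiescent arrays. The difference with FGF alone was -1.45 ± 0.43 (adjusted p = 0.0377) at 7 h and -1.52 ± 0.43 (adjusted p = 0.0199) at 12 h, and with U0126 it was -1.51 ± 0.43 (adjusted p = 0.0396) at 7 h and -1.67 ± 0.43 (adjusted p = 0.0345) at 12 h. On average over 4, 7 and 12 h, the U0126 effect was 0.13, with an interval of -0.40 to 0.65. At 4 h of FGF alone Fhl1 was -0.92 (adjusted p = 0.226, or 0.045 with the block). At 7 h the call was lost without FGF 7 h replicate 1 (adjusted p = 0.22), quiescent replicate 1b (0.0604) or quiescent replicate 2 (0.195), and at 12 h without FGF 12 h replicate 1 (adjusted p = 0.16) or quiescent replicate 2 (0.119). A dim second probe set of Fhl1, 1459003_at, differed in the other direction at both times (0.83 and 0.31), not called.

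**Figure D3:**
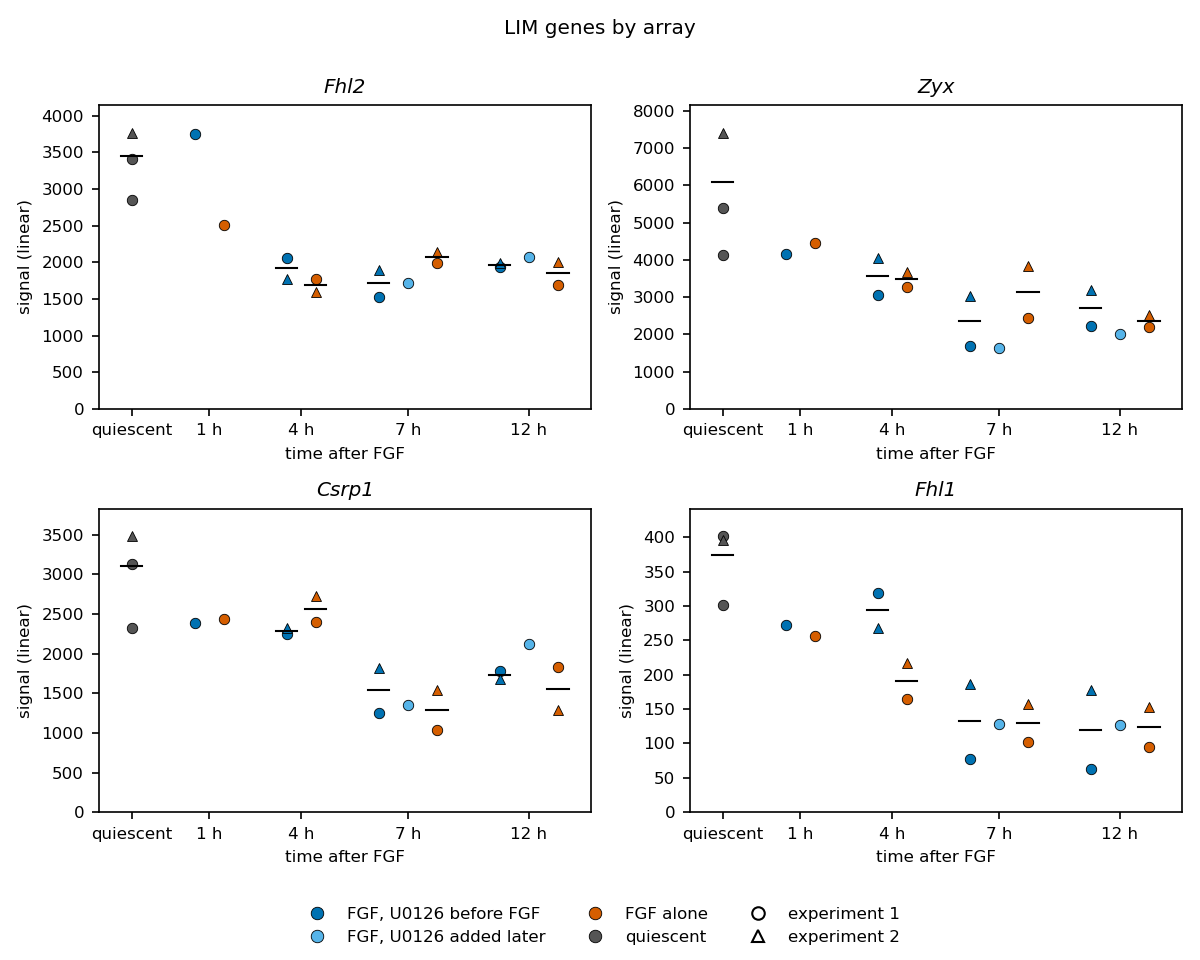
Points are the signals (linear) of Fhl2, Zyx, Csrp1 and Fhl1 on each of 19 arrays by time after FGF, with U0126 before FGF, U0126 added later and FGF alone side by side at each time. Circles are experiment 1, triangles experiment 2, and a short line is the mean of a group of more than 1 array. From 7 h on the points of all treatments lie below the 3 quiescent points. Blue and orange points are intermixed there, except for Fhl2 at 7 h, where all points with U0126 lie below those of FGF alone.

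Another 3 members were called at 1 time with FGF alone. Cnn2 (probe set 1450981_at), calponin 2, binds actin and restrains myosin, and its promoter holds a box. It had signals with U0126 of 3690.2 at 1 h, 2938 and 3088 at 4 h, 2116 and 2998 at 7 h, and 3081 and 3504 at 12 h. Without U0126 it had 3395, 4621 and 5297 in the quiescent arrays, 3881 at 1 h, 3528 and 3577 at 4 h, 2542 and 3869.8 at 7 h, and 3015 and 3015 at 12 h. Cnn2 had 1919.6 at 7 h and 2963 at 12 h in the late additions of U0126. Its difference at 12 h was -0.60 ± 0.20 (adjusted p = 0.047), and both FGF arrays were below the quiescent ones. That call was lost without FGF 12 h replicate 1 (adjusted p = 0.155), FGF 12 h replicate 2 (0.155), quiescent replicate 1b (0.148) or quiescent replicate 2 (0.361). It was lost as well under 6 of the other settings, quantile normalization, scaling by the 75th percentile, no filter, the probe set of highest variance, no variance trend and separate quiescent arrays (adjusted p = 0.0516 to 0.131). At 7 h of FGF Cnn2 was -0.54 (adjusted p = 0.0979, or 0.00825 with the block).

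Pdlim5 (probe set 1427475_a_at), which links alpha-actinin to kinases through PDZ and LIM domains, had signals with U0126 of 2672 at 1 h, 3179.9 and 3217 at 4 h, 2802 and 2945 at 7 h, and 2839 and 3093 at 12 h. In arrays not given U0126, Pdlim5 had 3049, 3203 and 3188 in the quiescent arrays, 2939.7 at 1 h, 2720.3 and 3888 at 4 h, 2422 and 2633 at 7 h, and 2148 and 2251 at 12 h. Pdlim5 had 2674 at 7 h and 2754 at 12 h in the late additions of U0126. The 12 h FGF arrays were below the quiescent arrays and those with U0126, and the difference from quiescent cells was -0.52 ± 0.15 (adjusted p = 0.0229). It was lost without FGF 12 h replicate 1 (adjusted p = 0.119), FGF 12 h replicate 2 (0.0752) or quiescent replicate 2 (0.116). The other 6 probe sets of Pdlim5 that passed the filter lay between 0.083 and 0.43 at 12 h, so only the brightest probe set was lower. Pdlim7, the remaining LIM gene, differed by -0.53 at 12 h (adjusted p = 0.0991, or 0.0353 with the block). A dimmer Pdlim7 probe set, 1417959_at, was not lower, with 227 and 231.5 at 12 h of FGF against 165, 190 and 231 in quiescent cells. With U0126 it had 240 and 230 at 12 h. The probe set 1443785_x_at had 134 and 145 at 12 h of FGF, against 159, 144 and 149. U0126 effects at 12 h were 0.43 for Pdlim5 (adjusted p = 0.0825, or 0.0148 with the block) and 0.55 for Pdlim7 (0.121, or 0.0407), and the average for Pdlim5 was 0.20 (0.13, or 0.0367).

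Myl9 (probe set 1452670_at), a regulatory light chain of non-muscle and smooth muscle myosin with a box in its promoter, was dim. It had 155 at 1 h, 108 and 139 at 4 h, 72.7 and 140.1 at 7 h, and 54.4 and 113 at 12 h with U0126. Signals of Myl9 without U0126 were 210.5, 153 and 217 in the quiescent arrays, 156 at 1 h, 82.9 and 172 at 4 h, 53.8 and 56.9 at 7 h, and 60.1 and 119 at 12 h. Myl9 had 79 at 7 h and 67.7 at 12 h in the late additions of U0126. The FGF arrays at 7 h were below the quiescent arrays and those with U0126, a difference of -1.61 ± 0.43 (adjusted p = 0.0227) from quiescent cells. At 12 h it was -1.09 (adjusted p = 0.0908, or 0.0116 with the block). The 7 h call was lost without FGF 7 h replicate 1 (adjusted p = 0.0985), FGF 7 h replicate 2 (0.0698) or quiescent replicate 2 (0.152).

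U0126 given before FGF was set against FGF alone at the same times. The average effect over 4, 7 and 12 h was called for 7 of 37 members, 5 lower and 2 higher, or 18.9%, beside 22% of all genes (10.3% lower and 11.7% higher). Without the block that share is near the background. The members called were Actn1, Actn4, Tagln2, Vcl and Ankrd1 (lower with U0126) and Flnc and Tgfb1i1 (higher). At single times the counts were 0 at 1 h (0.18% of all genes; 1 member at an unadjusted p under 0.05), 0 at 4 h (5.94%; 9 members at an unadjusted p under 0.05), 4 at 7 h (6.09%) and 4 at 12 h (12.1%). With the block they were 0, 6, 7 and 8, beside 1.05%, 13%, 12.6% and 20.6% of all genes. For the average the block gave 15, 12 lower and 3 higher, or 40.5% of the members, beside 30.6% of all genes. Leaving out 1 array gave counts of 1 to 3 at 7 h, the count of 1 being without FGF 7 h with U0126 replicate 1, and of 2 at 12 h without FGF 12 h replicate 2 or FGF 12 h with U0126 replicate 2. By limma's F test, 0 members had a U0126 effect that differed over these 3 times, with 0 at an unadjusted p under 0.05, beside 1.03% of all genes (3.84% with the block, where the members' count was again 0).

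Flnc and Tgfb1i1 were lower with FGF alone and higher with U0126 than with FGF alone. Flnc (probe set 1449073_at) encodes filamin C, an actin crosslinker best known from striated muscle. In arrays given U0126 before FGF, it had 1149.7 at 1 h, 1516 and 1896 at 4 h, 1335 and 1363 at 7 h, and 1058 and 975 at 12 h. Flnc without U0126 had 839, 1262 and 1572 in the quiescent arrays, 958 at 1 h, 1220.4 and 1232 at 4 h, 583 and 983 at 7 h, and 429 and 479 at 12 h. At 12 h both FGF arrays were below the lowest array with U0126, and below all quiescent arrays; at 7 h they overlapped with the quiescent arrays. Flnc fell, with differences of -1.46 ± 0.23 at 12 h of FGF (adjusted p = 0.000367) and -0.74 ± 0.23 at 7 h (adjusted p = 0.0474). U0126 against FGF alone gave 1.14 ± 0.23 (adjusted p = 0.00376) at 12 h, 0.82 ± 0.23 (adjusted p = 0.0466) at 7 h, and 0.81 ± 0.13 (adjusted p = 0.000395) on average. The 7 h calls were lost without some arrays: for FGF without FGF 7 h replicate 1 (adjusted p = 0.413), quiescent replicate 1b (0.182) or quiescent replicate 2 (0.437), and for U0126 without FGF 7 h replicate 1 (adjusted p = 0.329), FGF 7 h with U0126 replicate 1 (0.171) or FGF 7 h with U0126 replicate 2 (0.197). The second probe set of Flnc, 1447812_x_at, gave -1.11 for FGF and 1.21 for U0126 at 12 h.

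Tgfb1i1 (probe set 1418136_at) encodes Hic-5, a LIM protein of focal adhesions and a relative of paxillin. Signals of Tgfb1i1 with U0126 were 474 at 1 h, 847 and 795 at 4 h, 538 and 724 at 7 h, and 658 and 788 at 12 h. Without U0126 it had 528, 648 and 1039.6 in the quiescent arrays, 587 at 1 h, 613 and 387 at 4 h, 287 and 369 at 7 h, and 268 and 199 at 12 h. With U0126 added at 1 h it had 508 at 7 h. All 4 arrays of FGF alone at 7 and 12 h were below all quiescent arrays and below all arrays of FGF with U0126 at 4, 7 and 12 h. Tgfb1i1 fell, with differences of -1.70 ± 0.28 at 12 h of FGF (adjusted p = 0.000534) and -1.23 ± 0.28 at 7 h (adjusted p = 0.00927), a 7 h call lost without FGF 7 h replicate 1 (adjusted p = 0.0813) or quiescent replicate 2 (0.145). The U0126 effect was 1.58 ± 0.28 (adjusted p = 0.00134) at 12 h and 1.08 ± 0.16 (adjusted p = 0.00018) on average. At 7 h it was 0.91, not called (adjusted p = 0.0733, or 0.0206 with the block). The 12 h calls of Flnc and Tgfb1i1, for FGF and for U0126, held in every alternative run.

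Actn1, Ankrd1, Actn4 and Tagln2 were higher with FGF alone than in quiescent cells at 7 or 12 h and lower with U0126 on average. Actn1 (probe set 1428585_at) encodes alpha-actinin 1, which crosslinks actin in stress fibres. Actn1 with U0126 had 3169 at 1 h, 3432 and 4599 at 4 h, 2693 and 3729 at 7 h, and 3746 and 4472 at 12 h. In arrays not given U0126, Actn1 had 3142, 4236 and 5242 in the quiescent arrays, 3199.9 at 1 h, 5099 and 6892 at 4 h, 6214 and 7999 at 7 h, and 6487 and 7766 at 12 h. At 7 and 12 h the FGF arrays were above every quiescent array and every array with U0126. The difference from quiescent cells was 0.70 ± 0.22 (adjusted p = 0.0389) at 12 h and 0.69 at 7 h, not called there (adjusted p = 0.0582, or 8.86e-05 with the block). At 4 h it was 0.44 (adjusted p = 0.283, or 0.00571 with the block). U0126 gave -1.15 ± 0.22 (adjusted p = 0.00535) at 7 h, -0.79 ± 0.22 (adjusted p = 0.0309) at 12 h and -0.84 ± 0.13 (adjusted p = 0.000234) on average. At 4 h the U0126 effect was -0.58 (adjusted p = 0.171, or 0.0008 with the block). The FGF call at 12 h was lost without FGF 12 h replicate 1 (adjusted p = 0.0707), FGF 12 h replicate 2 (0.225) or quiescent replicate 1a (0.059), and the U0126 calls at 7 h without FGF 7 h replicate 2 (adjusted p = 0.066) or FGF 7 h with U0126 replicate 1 (0.0831) and at 12 h without FGF 12 h replicate 1 (adjusted p = 0.0677), FGF 12 h replicate 2 (0.205), FGF 12 h with U0126 replicate 1 (0.194) or FGF 12 h with U0126 replicate 2 (0.0694). The average call held in every alternative run. The other probe sets of Actn1, 1427385_s_at and 1452415_at, gave -1.16 and -0.87 for the average.

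Ankrd1 (probe set 1420991_at) encodes an ankyrin repeat protein known as a regulator of cardiac transcription and as a target of mechanical signals. With U0126 it had signals of 1275 at 1 h, 696 and 941 at 4 h, 579.6 and 699.6 at 7 h, and 712 and 676 at 12 h. Signals of Ankrd1 without U0126 were 681, 927 and 977 in the quiescent arrays, 1081 at 1 h, 1002 and 1259.7 at 4 h, 1462 and 1402 at 7 h, and 1147 and 1295 at 12 h. The FGF arrays at 7 and 12 h were above all quiescent arrays and above all arrays with U0126 at the same times. Ankrd1 differed by 0.69 ± 0.18 (adjusted p = 0.0219) from quiescent cells at 7 h of FGF, and 0.46 at 12 h (adjusted p = 0.0938, or 0.0172 with the block). U0126 gave -1.15 ± 0.18 (adjusted p = 0.00107) at 7 h, -0.80 ± 0.18 (adjusted p = 0.00899) at 12 h and -0.81 ± 0.11 (adjusted p = 5.21e-05) on average. The FGF call was lost without FGF 7 h replicate 1 (adjusted p = 0.109) or FGF 7 h replicate 2 (0.0648), and the U0126 call at 12 h without FGF 12 h replicate 2 (adjusted p = 0.0901) or FGF 12 h with U0126 replicate 2 (0.0688), while the U0126 calls at 7 h and on average held in every alternative run. At 4 h the U0126 effect was -0.47 (adjusted p = 0.175, or 0.0333 with the block).

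Actn4 (probe set 1423449_a_at), the second non-muscle alpha-actinin, had signals with U0126 of 3267 at 1 h, 3265 and 2900.0 at 4 h, 2266 and 3100.1 at 7 h, and 3492 and 2829.5 at 12 h. Actn4 without U0126 had 2610.5, 3099 and 2791 in the quiescent arrays, 2545 at 1 h, 4294 and 3699 at 4 h, 3764 and 4296 at 7 h, and 4644 and 4085 at 12 h. Actn4 had 2731 at 7 h and 3464 at 12 h in the late additions of U0126. All arrays of FGF alone at 4, 7 and 12 h were above all quiescent arrays. The difference at 12 h was 0.63 ± 0.16 (adjusted p = 0.0134), and those at 4 and 7 h were 0.50 and 0.51 (adjusted p = 0.0752 and 0.0546, or 0.0232 and 0.016 with the block). U0126 gave -0.60 ± 0.16 (adjusted p = 0.0428) at 7 h and -0.48 ± 0.095 (adjusted p = 0.00175) on average, and at 12 h -0.47 (adjusted p = 0.0823, or 0.0279 with the block). The FGF call was lost without FGF 12 h replicate 1 (adjusted p = 0.112) or quiescent replicate 2 (0.0779), and the 7 h U0126 call without FGF 7 h replicate 1 (adjusted p = 0.0753), FGF 7 h replicate 2 (0.252) or FGF 7 h with U0126 replicate 1 (0.366).

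Tagln2 (probe set 1426529_a_at), transgelin 2, the transgelin of non-muscle cells, had signals with U0126 of 1051 at 1 h, 1487 and 1668 at 4 h, 1086 and 1592 at 7 h, and 2034 and 1827 at 12 h. Without U0126 it had 958, 1805 and 1839.9 in the quiescent arrays, 1254 at 1 h, 2002 and 2064 at 4 h, 1333 and 2305 at 7 h, and 2767 and 2922 at 12 h. Tagln2 had 1082 at 7 h and 2501 at 12 h in the late additions of U0126. Its FGF arrays at 12 h were above all quiescent arrays and those with U0126, 0.86 ± 0.23 (adjusted p = 0.0164) from quiescent cells. The average U0126 effect was -0.44 ± 0.14 (adjusted p = 0.0276), and at 12 h it was -0.56 (adjusted p = 0.156, or 0.0258 with the block). The 12 h call was lost without FGF 12 h replicate 1 (adjusted p = 0.0667) or FGF 12 h replicate 2 (0.092), and the average without any of 8 of 12 arrays (adjusted p = 0.0504 to 0.0916).

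Vcl (probe set 1416156_at) encodes vinculin, which ties integrin adhesions to actin. In arrays given U0126 before FGF, it had 6159 at 1 h, 5616 and 6461 at 4 h, 5030.0 and 6434 at 7 h, and 6121 and 7309 at 12 h. In arrays not given U0126, Vcl had 6028, 6485 and 8165 in the quiescent arrays, 6631 at 1 h, 7617 and 9146 at 4 h, 7396 and 9048 at 7 h, and 6619 and 7471 at 12 h. Vcl had 5864 at 7 h and 6661 at 12 h in the late additions of U0126. At 4 and 7 h both arrays with U0126 were below both arrays of FGF alone, and at 12 h they overlapped. On average over 4, 7 and 12 h, the U0126 effect was -0.35 ± 0.10 (adjusted p = 0.0191), lost without any of 6 of 12 arrays (adjusted p = 0.0555 to 0.0643). Its U0126 effect at 4 h was -0.47 and at 7 h -0.52, called with the block alone (adjusted p = 0.00314 and 0.00123). FGF alone was -0.023 from quiescent cells at 12 h. Tln1, talin 1, the partner of vinculin at adhesions, was -0.40 from quiescent cells at 12 h of FGF (adjusted p = 0.147, or 0.0407 with the block), with an average U0126 effect of -0.19 (adjusted p = 0.235).

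**Figure D4:**
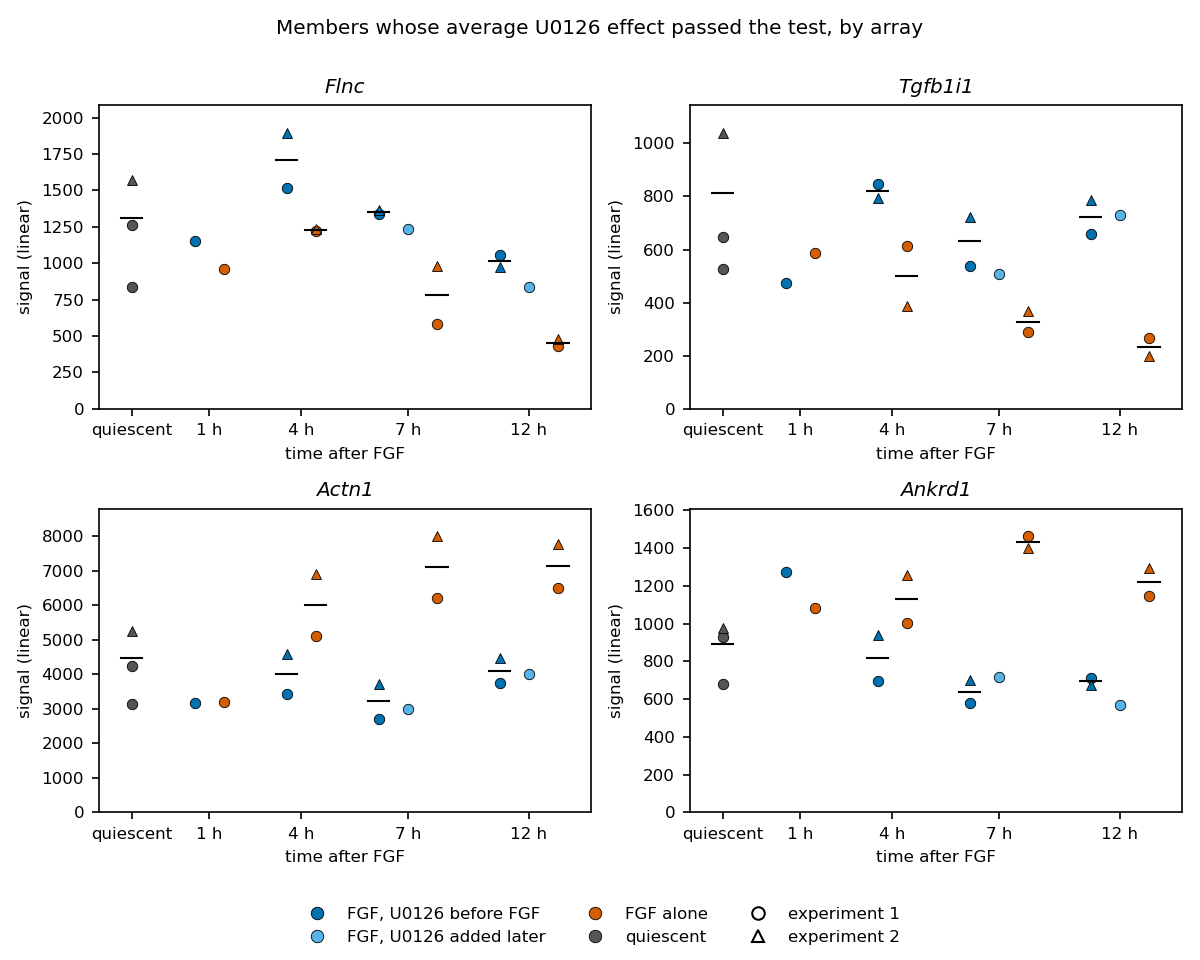
Points are the signals (linear) of Flnc, Tgfb1i1, Actn1 and Ankrd1 on each of 19 arrays by time after FGF, with U0126 before FGF, U0126 added later and FGF alone side by side. Circles are experiment 1, triangles experiment 2, and a short line is the mean of a group of more than 1 array. At 7 and 12 h the points with U0126 lie above those of FGF alone for Flnc and Tgfb1i1 and below them for Actn1 and Ankrd1, for early and late addition alike.

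The late additions ask whether a member still differs from FGF alone when MEK is inhibited only after 1 or 7 h of FGF. U0126 added at 1 h and measured at 7 h was set against FGF alone at 7 h. There 2 members were lower and 0 higher, beside 3.59% of all genes. With the block there were 3 lower and 1 higher, beside 7.51%. U0126 added at 7 h and measured at 12 h gave 2 lower and 1 higher against FGF alone at 12 h (5.05% of all genes), and 3 and 2 with the block (11.3%). Each late group is a single array, assumed to vary like the others. Ankrd1 had 719 with U0126 added at 1 h, against 1462 and 1402 with FGF alone at 7 h (-0.98 ± 0.22, adjusted p = 0.023). It had 566 with U0126 added at 7 h, against 1147 and 1295 with FGF alone at 12 h (-1.09 ± 0.22, adjusted p = 0.0104). Both late arrays were below the FGF arrays of their time. In the LIM genes that were lower at 7 and 12 h of FGF with and without U0126, the late arrays had 1714 at 7 h and 2066 at 12 h for Fhl2, 1619 and 2009 for Zyx, 1355 and 2124 for Csrp1, and 128 and 127 for Fhl1. All were below the quiescent arrays of their gene, and none passed the test against FGF alone without the block. Actn1 had 3003 with U0126 added at 1 h, against 6214 and 7999 with FGF alone (-1.23 ± 0.27, adjusted p = 0.0205). With U0126 added at 7 h Actn1 had 4012, against 6487 and 7766 with FGF alone, -0.82 and not called (adjusted p = 0.111, or 0.00329 with the block). Tgfb1i1 had 730.2 with U0126 added at 7 h, inside the range of U0126 from the start (658 and 788), against 268 and 199 with FGF alone (1.6 ± 0.34, adjusted p = 0.0128). Flnc had 1233 with U0126 added at 1 h (0.69, adjusted p = 0.246, or 0.025 with the block) and 839 with U0126 added at 7 h (0.87, adjusted p = 0.098, or 0.00533 with the block). In both genes these late arrays lay above the FGF arrays of their time. Mylk, myosin light chain kinase, had a dim 41.6 with U0126 added at 7 h, against 106 and 231 with FGF alone (-1.63 ± 0.43, adjusted p = 0.0393). Zyx with U0126 added at 1 h was -0.91 from FGF alone (adjusted p = 0.22, or 0.024 with the block). Without FGF 7 h replicate 2 the 7 h count was 0, with adjusted p = 0.0746 for Ankrd1 and 0.131 for Actn1, and Ankrd1 was lost without FGF 7 h replicate 1 too (adjusted p = 0.0673), where the count was 4. Without FGF 12 h replicate 2 the 12 h count was 0 (adjusted p = 0.0739 for Ankrd1, 0.0919 for Tgfb1i1 and 0.241 for Mylk). Against U0126 from the start, late addition gave 0 members called at 7 h (0% of all genes; 0 members at an unadjusted p under 0.05) and 0 at 12 h (0.674%; 2 members at an unadjusted p under 0.05), by limma, and 0 at both times with the block (0.0267% and 2.23%). For Ankrd1 the 95% interval of that difference was -0.31 to 0.65 at 7 h and -0.76 to 0.19 at 12 h.

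FGF with U0126 was set against quiescent cells to ask which members differ when FGF is given with MEK inhibited. At 1 h 0 members were called (0.113% of all genes; 1 member at an unadjusted p under 0.05), at 4 h 1 (7.39%), at 7 h 6 (9.07%) and at 12 h 4 (5.42%), all lower. With the block they were 0, 4, 15 and 9, beside 0.367%, 15%, 18.6% and 14.4%, all lower but Tpm4. Fhl2 was lower at 4, 7 and 12 h. Zyx, Csrp1 and Fhl1 were lower at 7 and 12 h, and at 7 h Cnn2 (-0.86 ± 0.20, adjusted p = 0.0144) and Cald1 (-0.84 ± 0.18, adjusted p = 0.00892) were lower too. Cald1 encodes caldesmon, which stabilises actin filaments with tropomyosin. It had 5512 and 7968 at 7 h with U0126, against 12933, 12182 and 11305 in quiescent cells. That call was lost with the probe set of highest variance and with no variance trend. The Cald1 difference ran from -1.11 to -0.18 over the alternatives. With FGF alone Cald1 was -0.47 at 7 h and -0.53 at 12 h (adjusted p = 0.115 and 0.0559, or 0.0481 and 0.0212 with the block). Another Cald1 probe set, 1424770_at, had 4701.5, 5948 and 4151 in quiescent cells. It had 2278 and 2840 at 7 h and 2323 and 2273 at 12 h of FGF alone, and 1706 and 1927 at 7 h with U0126. In 1424768_at both 7 h arrays of FGF alone (3059 and 3848) were below the quiescent ones too. The dim 1433147_at overlapped them at 7 h (113 and 173 against 112, 104 and 164). At 7 h the block alone called Actn1 (-0.46, adjusted p = 0.00355 with the block), Ankrd1 (-0.46, 0.0267), Vcl (-0.33, 0.0255), Tln1 (-0.53, 0.0142), Tagln (-0.99, 0.0255), Tpm2 (-0.31, 0.0498) and Tpm4 (0.36, 0.031), beside Acta2 and Mrtfa as given above. These stood at an adjusted p of 0.0908 to 0.448 without it. At 12 h it added Myl9 (-1.18, 0.0149), Cnn2 (-0.48, 0.0277), Cald1 (-0.50, 0.0495) and Tpm4 (0.35, 0.0402), and at 4 h Cnn2 (-0.60, 0.00584). Flnc with U0126 was -0.32 from quiescent cells at 12 h (interval -0.81 to 0.17) and Tgfb1i1 -0.11 (interval -0.71 to 0.48). These comparisons share the quiescent arrays with those of FGF alone, so their values are given side by side and not correlated. Without quiescent replicate 2 the counts were 0, 2 and 0 at 4, 7 and 12 h, with adjusted p for Zyx, Csrp1 and Fhl1 of 0.116, 0.124 and 0.223 at 7 h and 0.328, 0.355 and 0.213 at 12 h. Without the experiment 1 array with U0126 the counts were 1 at 7 h (0.135, 0.153 and 0.391 for the same genes) and 0 at 12 h (0.259, 0.162 and 0.332). Without quiescent replicate 1b the 12 h count was 1, with Zyx, Csrp1 and Fhl1 at 0.0623, 0.108 and 0.051. Cnn2 at 7 h was lost without FGF 7 h with U0126 replicate 1 (adjusted p = 0.21), quiescent replicate 1b (0.0555) or quiescent replicate 2 (0.19), and Cald1 without FGF 7 h with U0126 replicate 1 (adjusted p = 0.159).

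**Figure D5:**
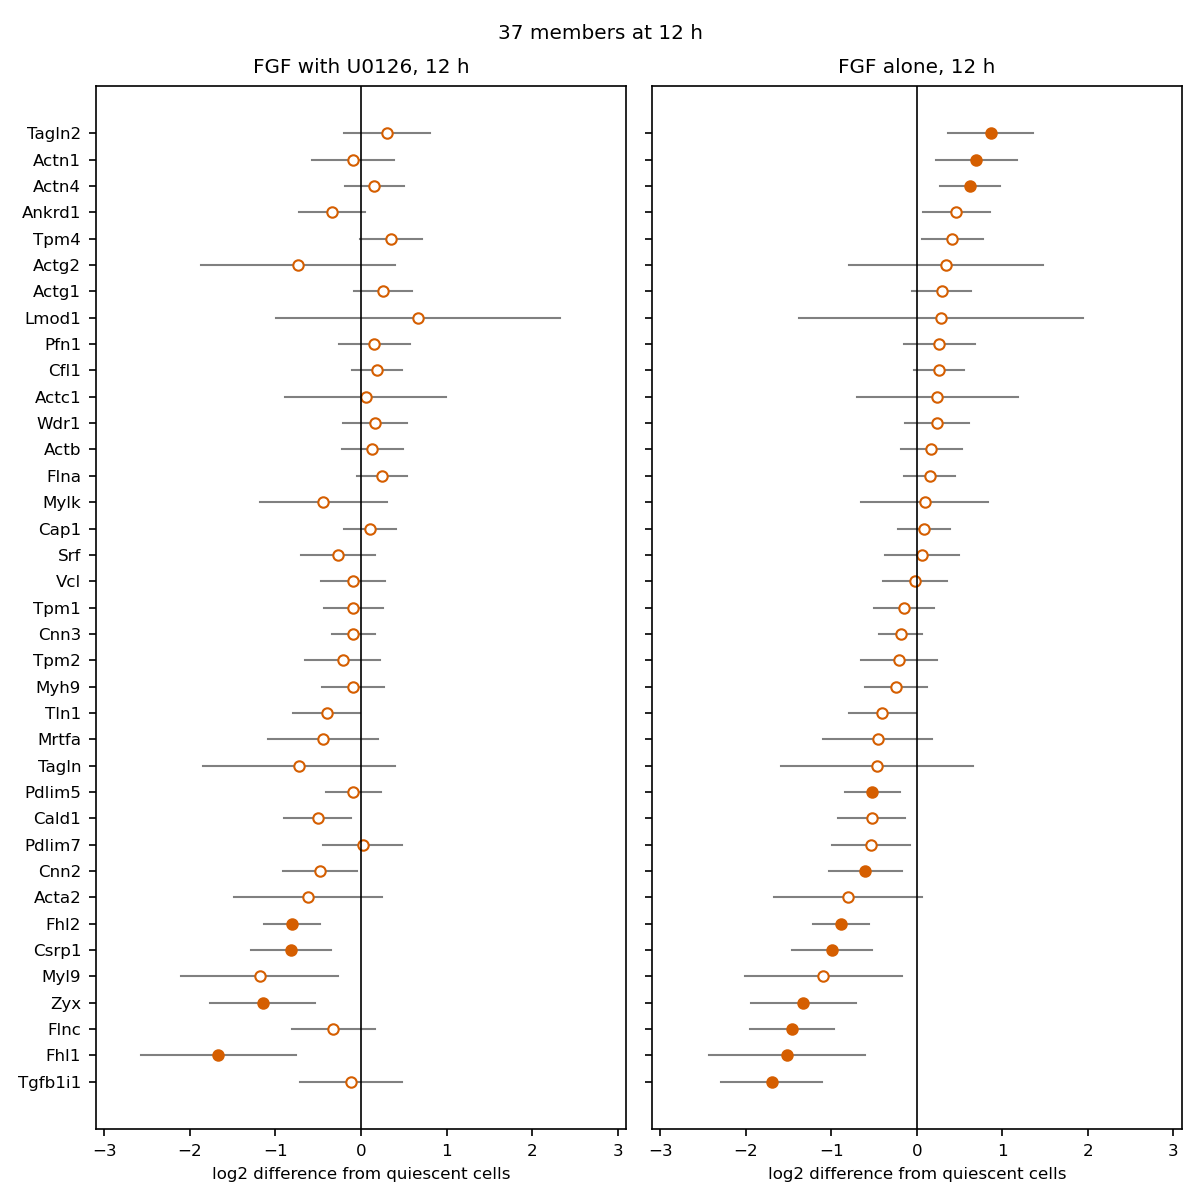
Points are log2 differences from quiescent cells at 12 h for FGF with U0126 (left) and FGF alone (right), with 95% intervals as lines, for the 37 members in the order of the right panel; filled points were called. Zyx, Csrp1, Fhl1 and Fhl2 are filled in both panels, while Flnc, Tgfb1i1, Cnn2, Pdlim5, Actn1, Actn4 and Tagln2 are filled on the right alone.

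Times of FGF alone were also compared with each other. FGF at 4 h against FGF at 1 h gave 0 members called (5.18% of all genes; 7 members at an unadjusted p under 0.05), and 4 with the block (14.3%), which were Actn1 and Actn4 (higher, adjusted p = 0.00176 and 0.0216) and Zyx and Fhl2 (lower, 0.0317 and 0.0191). The median of all genes in that comparison was -0.12, and 0.055 for the members. A difference among 4, 7 and 12 h of FGF alone, a limma F test added after the data were seen, was called for 2 members, Flnc (adjusted p = 0.00488) and Csrp1 (adjusted p = 0.031), beside 4.61% of all genes. Flnc at 12 h was -1.41 from 4 h, with 429 and 479 at 12 h and 1220.4 and 1232 at 4 h. Csrp1 at 12 h was -0.73 from 4 h, with 1829 and 1285 at 12 h and 2396 and 2726 at 4 h. With the block 8 members were called (11.4% of all genes), the others being Acta2, Actc1, Tagln2, Zyx, Pdlim5 and Tgfb1i1 (adjusted p = 0.00998 to 0.0396). Flnc was lost without FGF 12 h replicate 1 (adjusted p = 0.0627), and Csrp1 without FGF 4 h replicate 1 (adjusted p = 0.103), FGF 4 h replicate 2 (0.253) or FGF 7 h replicate 1 (0.0788).

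The remaining 18 members were called in 2 of these comparisons, Mylk and Cald1 as given above, and otherwise stayed short of the test. With FGF alone they ranged from -0.53 (Pdlim7) to 0.42 (Tpm4) at 12 h and from -0.49 (Actg2) to 0.52 (Tpm4) at 7 h. At 4 h the range was -1.19 (Actc1) to 0.46 (Tpm4), and at 1 h, on 1 array, -1.05 (Tagln) to 0.34 (Cfl1). Tpm4, a non-muscle tropomyosin, had 11276 and 12110.2 at 7 h of FGF, against 8099.7, 7170.1 and 8734 in quiescent cells. Its differences of 0.46, 0.52 and 0.42 at 4, 7 and 12 h passed with the block alone (adjusted p = 0.00686, 0.00227 and 0.00741). So did its U0126 effect at 4 h (-0.37, 0.0322) and on average (-0.20, 0.0229). Tagln, smooth muscle transgelin, had 52.3 and 166 at 4 h with U0126 and 188 and 294 with FGF alone. Its average U0126 effect of -0.80 ± 0.30 was not called (adjusted p = 0.0744), and was with the block (adjusted p = 0.00131), as were its effects at 4 h (-1.19, adjusted p = 0.0112) and 7 h (-0.95, 0.0438). Among the genes of actin turnover, Wdr1, a cofactor of cofilin, had an average U0126 effect of -0.28 (adjusted p = 0.056, or 0.00156 with the block), Pfn1, profilin 1, -0.18 (0.301, or 0.0232) and Cfl1, cofilin 1, -0.19 (0.108, or 0.0409). Wdr1 was also called with the block for U0126 at 4 h (-0.47, adjusted p = 0.00638), and Cfl1 for FGF at 7 h (0.37, 0.0319). At 12 h of FGF alone the brightest Wdr1 probe set, 1450851_at, had 5700 and 6431, overlapping 4490, 4291 and 6020 in quiescent cells. A further probe set, 1437591_a_at, had 3735 and 4551 there, against 1834, 2585 and 2428.5 in quiescent cells. All its arrays of FGF alone at 4, 7 and 12 h were above every quiescent array. Another, 1423054_at, had 4048 and 4563 at 12 h, against 2473, 3369 and 3999. Flna, filamin A, differed by 0.15 at 12 h of FGF (adjusted p = 0.527), with an interval of -0.14 to 0.44. Myh9, the heavy chain of non-muscle myosin IIA, differed by -0.24 (interval -0.60 to 0.12), Cnn3 by -0.19 (interval -0.44 to 0.063) and Cap1 by 0.085 (interval -0.22 to 0.39). At 12 h of FGF alone Myh9 probe set 1420171_s_at had 4034 and 4467, below 7242, 5212 and 5773 in quiescent cells. The 12 h arrays of 1440708_at (168 and 268) were below the quiescent ones too, and those of 1417472_at and 1420170_at overlapped them. Cnn3 probe set 1426724_at had 3791 and 3659 at 12 h, below 4318.5, 4450 and 4759. The further dimmer probe sets of Cnn3 overlapped the quiescent arrays at 12 h. Tpm1 and Tpm2, further tropomyosins, differed by -0.14 and -0.20 at 12 h of FGF. In the dimmer Tpm2 probe set 1449577_x_at, 12 h of FGF alone gave 646 and 489, against 1041, 1144 and 937 in quiescent cells. All its arrays with FGF, with or without U0126, were below every quiescent array. In 1425028_a_at the 12 h arrays (1549 and 1942) were below the quiescent ones (1972, 2363 and 2621). In 1419739_at (237 and 247) they overlapped them (257, 226 and 319). A further probe set of Tpm1, 1456623_at, had a U0126 effect of 1.14 at 12 h where the gene's brightest gave 0.056. That dim probe set had 216 and 394 with U0126 and 122 and 129 with FGF alone at 12 h. Its quiescent arrays had 136, 303 and 268.

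Other genes of the pathway, from lists drawn up with earlier results known, are described by their counts. A list of 15 other SRF targets, which holds immediate-early genes such as Egr1 and also genes outside that class such as Amotl2 and Mical2, had 6 of 15 higher and 0 lower at 1 h of FGF (median 1.51), where 0.48% of all genes were called and 0 of the 37 members. With U0126 at 1 h 0 of them were higher and 4 lower than with FGF alone, beside 0.18% of all genes in either direction. Egr3, an early growth response factor, was 3.95 ± 0.23 (adjusted p = 4.25e-07) from quiescent cells at 1 h, and Egr1 2.17 ± 0.36 (adjusted p = 0.00999). The average U0126 effect was called lower for 9 and higher for 3 of the 15, beside 10.3% and 11.7% of all genes, with Egr1 at -4.06 ± 0.17 (adjusted p = 5.8e-10) and Amotl2, an angiomotin-like protein, at 0.30 ± 0.085 (adjusted p = 0.0206). Amotl2 was lower at 12 h of FGF, -1.19 ± 0.15 (adjusted p = 5.31e-05). Among SRF cofactors and regulators, Mrtfb, the relative of Mrtfa, was -0.83 ± 0.16 (adjusted p = 0.00156) from quiescent cells at 12 h of FGF. Elk3, a ternary complex factor, was 0.81 ± 0.14 (adjusted p = 0.000724) there, with an average U0126 effect of -0.71 ± 0.079 (adjusted p = 1.12e-05). Those were the 2 of 6 tested regulators called at 12 h of FGF, beside 20.3% of all genes.

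At 12 h of FGF the focal adhesion list had 1 of 18 higher and 3 lower (median -0.32), beside 20.3% of all genes in either direction. Tns1, tensin 1, was -1.49 ± 0.24 (adjusted p = 0.000505) from quiescent cells, with a U0126 effect of 0.85 ± 0.24 (adjusted p = 0.0332) at that time. Pxn, paxillin, had an average U0126 effect of -0.74 ± 0.10 (adjusted p = 4.79e-05) and Tns3 of -0.72 ± 0.064 (adjusted p = 1.21e-06). The list of actin turnover, capping and bundling had 0 of 23 higher and 3 lower at 12 h. Cfl2, cofilin 2, was -0.67 ± 0.12 (adjusted p = 0.00135) from quiescent cells there, and its average U0126 effect was 0.87 ± 0.072 (adjusted p = 5.72e-07). Enah, which speeds filament elongation, had an average U0126 effect of 0.92 ± 0.089 (adjusted p = 3.02e-06). At 12 h of FGF the Arp2/3 complex had 0 of 6 higher and 0 lower, the nucleators and formins 1 of 11 higher and 2 lower, and the other myosin and tropomyosin genes 1 of 5 higher and 0 lower. Diaph3, a formin, was 1.14 ± 0.30 (adjusted p = 0.0137) from quiescent cells and had a U0126 effect of -1.36 ± 0.30 (adjusted p = 0.0072) at 12 h.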

How the data were processed

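Total RNA of NIH3T3 cells was measured on 19 Affymetrix mouse arrays of 45101 probe sets. The deposited values are MAS5 signal intensity on a linear scale, per the labels, and each array's trimmed mean (2% off each end) is 500 in the values. Scanner files were not used here, and the MAS5 version is not given in the sources used here.

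Gene symbols came from GEO's platform annotation: 34945 probe sets had 1 gene, 932 several and 9160 none, and 64 control probe sets were left out. Signals were taken as log2(signal + 13.6), the offset being the 20th percentile of all values. Quiescent arrays 1a and 1b share an experiment and were averaged, so 18 columns entered the fit. A single linear model over the 11 groups was fitted in R 4.3.3 by limma 3.58.1, moderated by eBayes with a trend of variance on mean signal (residual df 7, prior df 7.48, two-sided, Benjamini-Hochberg over 14996 genes, 2-contrast F tests for differences between times), and groups of 1 array were assumed to vary like the others. Figures were drawn with matplotlib in Python 3.11.15.

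The experiment number pairs arrays: deviations between experiments 1 and 2 correlated in all 21 pairs of groups (0.124 to 0.304, median 0.21). The fit with it as a block has 6 residual df.

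Members and lists were chosen with earlier results of these data known. Values in every array are given for members called in at least 1 of 7 comparisons (FGF at 4, 7 or 12 h, U0126 at 4, 7 or 12 h, average U0126), at most 20, with Srf, Mrtfa, Actb, Actg1, Acta2 and Vcl in any case, and at most 4 genes are named per further list. One further list is not reported here. The test of FGF times and the grouping by role were added after the data were seen. Alternatives were other scalings, offset, filter, probe set choice, variance model and quiescent averaging, and leaving out each array. The number of arrays limits the precision.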

Additional observations from a re-analysis of the deposited data

Results flagged for a closer look

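The level with FGF alone differed between 4, 7 and 12 h for 2 members by limma's F test, Flnc (adjusted p = 0.00488) and Csrp1 (adjusted p = 0.031), out of 37 members and beside 4.61% of all genes. Flnc had 1220.4 and 1232 at 4 h, 583 and 983 at 7 h, and 429 and 479 at 12 h, and both 12 h arrays were below both 4 h arrays. Csrp1 had 2396 and 2726 at 4 h, 1039.7 and 1538 at 7 h, and 1829 and 1285 at 12 h, and its lowest array was at 7 h. Without FGF 12 h replicate 1 the adjusted p of Flnc was 0.0627, and without FGF 4 h replicate 2 that of Csrp1 was 0.253.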

How the results depend on the processing

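Of the 53 differences of single members called, 14 kept their call under every alternative run and 39 were lost without at least 1 array, 21 of them when quiescent replicate 2 was left out and 12 when FGF 12 h replicate 2 was. The experiment block kept all 53 and added 71, each named above. Quantile normalization lost 3 (Flnc at 7 h of FGF, Actn1 and Cnn2 at 12 h), scaling by the 75th percentile 2 (the same of Flnc and Cnn2), an offset of 1 lost 0, averaging no quiescent arrays 5 (those again, the U0126 effect on Flnc at 7 h and on Tagln2 on average, and Mylk with U0126 added at 7 h), no filter 11, no variance trend 32, and the probe set of highest variance 9, with 6 turned in sign. Those 6 were Fhl1 with FGF alone at 7 h (0.83) and 12 h (0.31), Fhl1 with FGF and U0126 at 7 h (0.42) and 12 h (0.95), Pdlim5 at 12 h (0.43) and Mylk with U0126 added at 7 h (0.014). They come from dimmer probe sets, and the cause was not tested.

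Counts of members called moved as follows, with the cause not tested. For FGF alone, 1 at 4 h became 2 with scaling by the 75th percentile, 3 with the probe set of highest variance or separate quiescent arrays and 6 with the block, 8 at 7 h became 5 with no filter, 3 with no variance trend, 15 with the block and 1 to 11 without 1 array, and 11 at 12 h became 5 with no variance trend, 18 with the block and 5 to 11 without 1 array. For the U0126 effect, 0 at 4 h became 6 with the block, 4 at 7 h became 2 with no filter, 1 with no variance trend, 7 with the block and 1 to 3 without 1 array, 4 at 12 h became 8 with the block and 2 to 3 without 1 array, and the average's 7 became 15 with the block and 5 to 9 without 1 array. For U0126 added at 1 h, 2 became 1 with the probe set of highest variance, 0 with no variance trend, 4 with the block and 0 to 4 without 1 array, and for U0126 added at 7 h, 3 became 0 with no variance trend, 5 with the block and 0 to 3 without 1 array. For FGF with U0126 against quiescent cells, 1 at 4 h became 2 with the probe set of highest variance, 4 with the block and 0 to 2 without 1 array, 6 at 7 h became 1 with no variance trend, 15 with the block and 1 to 8 without 1 array, and 4 at 12 h became 2 with no filter, 1 with no variance trend, 9 with the block and 0 to 4 without 1 array. FGF at 4 h against 1 h went to 1 with no filter, 2 with the probe set of highest variance and 4 with the block. The difference between times of FGF alone had 2 members, 1 with the probe set of highest variance, 0 with no variance trend, 8 with the block and 1 to 3 without 1 array. Lmod1, Actc1 and Actg2, none of them called without the block, had median signals near or below the 40th percentile of all values. How far this bears on their values was not tested.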
